A study of Mus musculus with 2 samples.

Results

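The 10 genes of glycolysis and lactate transport described here were measured by single-cell RNA sequencing of the mouse retina, among 32285 genes in the files. They were chosen by name: the glucose transporter Slc2a1 (GLUT1), the hexokinases Hk1 and Hk2, aldolase (Aldoa), phosphoglycerate kinase (Pgk1), enolase (Eno1), pyruvate kinase (Pkm), lactate dehydrogenase A (Ldha), and the monocarboxylate transporters Slc16a1 (MCT1) and Slc16a8 (MCT3). There were 2 libraries, each from the retinae of 3 to 5 mice pooled before dissociation with papain, collagenase and DNase and removal of dead cells. All mice were 6 to 9 weeks old, had both Tgfbr2 alleles floxed, which leaves them functionally wildtype (labelled WT), were homozygous for the leucine variant of RPE65, came from a Balb-C/CD1 background and were kept in full darkness for 18 h. The control group received no light. The light damage group was exposed to white light of 5000 lux for 30 min and killed after 6 h of recovery in dim light. With 1 pooled library per condition no difference has a replicate check and no p-value is given. Every interval below is a 95% interval that covers counting error only.

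Glycolysis splits glucose into pyruvate. Hexokinase traps glucose in the cell, and aldolase, phosphoglycerate kinase, enolase and pyruvate kinase carry out later steps. Photoreceptors are known for turning much of their glucose into lactate even when oxygen is present, which is called aerobic glycolysis. The retinal pigment epithelium (RPE) passes glucose from the choroid to the photoreceptors and carries lactate the other way, with GLUT1 and MCT1 among its transporters and MCT3 on its choroidal side. Müller glia are the radial glia of the retina. In GRCm38 coordinates the hexokinases lie at chr10:62268855-62379908 (Hk1) and chr6:82725025-82774454 (Hk2), Slc2a1 at chr4:119108711-119137983, Eno1 at chr4:150236721-150248879, Pgk1 at chrX:106187100-106203699 and Pkm at chr9:59656368-59679375. Aldoa lies at chr7:126795234-126800751, Ldha at chr7:46841475-46855627, Slc16a1 at chr3:104638668-104658462 and Slc16a8 at chr15:79251014-79254761. All are protein-coding, and each count covers the whole gene, so splice forms such as those of Pkm were not told apart.

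Several of these genes are textbook targets of hypoxia-inducible factors and of Myc. The bases before their start sites were searched for ACGTG on either strand, called the core here. It is a form of the letters that hypoxia-inducible factors bind, and it lies within CACGTG, the motif of Myc and its relatives. Other forms, such as GCGTG, were not searched. All 10 genes were found in the RefSeq promoter table (GRCm38.p6), with 17 start sites. Within the 250 bases before the start, 7 of the 10 genes had the core at 1 or more start sites, as did 8 of the 17 start sites, against 16.6% of all 32851 promoters in the table. Both hexokinases, which were higher in light-damaged rods, Ldha, and the 2 genes with the lowest ratio to control in high-unspliced rods are printed here, 5′ to 3′, up to the base before the first listed start. Capitals mark the core, overlapping matches merged.
Hk1 (chr10:62379909-62380158, minus strand): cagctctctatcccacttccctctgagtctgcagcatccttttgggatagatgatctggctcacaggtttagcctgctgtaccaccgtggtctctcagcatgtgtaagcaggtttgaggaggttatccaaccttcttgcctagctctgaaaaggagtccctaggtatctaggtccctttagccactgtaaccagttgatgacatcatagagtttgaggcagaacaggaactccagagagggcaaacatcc
Hk2 (chr6:82774455-82774704, minus strand): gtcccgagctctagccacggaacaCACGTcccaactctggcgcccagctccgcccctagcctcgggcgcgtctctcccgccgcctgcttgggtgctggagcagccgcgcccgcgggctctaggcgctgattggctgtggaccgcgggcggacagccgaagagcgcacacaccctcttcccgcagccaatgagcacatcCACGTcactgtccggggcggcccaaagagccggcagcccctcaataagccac
Ldha (chr7:46845554-46845803, plus strand): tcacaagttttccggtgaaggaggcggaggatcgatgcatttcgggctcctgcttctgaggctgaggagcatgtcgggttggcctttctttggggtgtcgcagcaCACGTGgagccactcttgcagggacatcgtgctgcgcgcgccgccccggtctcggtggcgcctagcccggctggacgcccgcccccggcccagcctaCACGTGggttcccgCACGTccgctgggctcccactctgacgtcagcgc
Eno1 (chr4:150236458-150236707, plus strand): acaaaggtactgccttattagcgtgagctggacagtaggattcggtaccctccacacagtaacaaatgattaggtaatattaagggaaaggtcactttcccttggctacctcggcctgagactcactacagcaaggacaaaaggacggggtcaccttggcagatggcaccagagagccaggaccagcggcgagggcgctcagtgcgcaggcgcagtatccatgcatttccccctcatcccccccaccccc
Pgk1 (chrX:106186850-106187099, plus strand): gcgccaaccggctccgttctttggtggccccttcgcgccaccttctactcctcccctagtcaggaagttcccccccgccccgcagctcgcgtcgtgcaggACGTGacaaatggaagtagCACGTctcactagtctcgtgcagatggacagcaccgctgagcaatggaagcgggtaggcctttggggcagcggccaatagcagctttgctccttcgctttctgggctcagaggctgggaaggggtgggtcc
Ldha held 3 sites, at 145, 48 and 34 bases before the start, of which 2 were the full CACGTG, a motif found in 6.02% of promoters. Hk2 held 2, at 226 and 52 bases, and Pgk1 held 2, at 150 and 131 bases, and 1.95% of all promoters had 2 or more. Slc2a1 held 1 at 36 bases and Slc16a1 held 1 at 200 bases. Hk1, Eno1 and Slc16a8 had no ACGTG on either strand in any listed window, which leaves other forms such as GCGTG unsearched. Genes with and without ACGTG were therefore among those higher and those lower after light damage, as described next.

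The control library held 30605284 UMIs and the light damage library 54413601, of which 18.7% and 32.7% were unspliced, that is, matched introns. UMIs matching exons (spliced) or both (ambiguous) were added up within each class of droplets and given as CPM, the gene's UMIs in 1000000 UMIs of that class. CPM is a share, so a gene can be lower in CPM because other genes take more. After filtering, 3669 control and 5593 light damage droplets remained, and 7 barcodes occurred in both. They were named by the UMIs of textbook markers: 3272 and 5039 rods, 47 and 65 cone-like, 156 and 292 RPE-like and 44 and 35 Müller-like droplets (control first). Rods were split by the unspliced share of their UMIs, under 20% (2393 and 1896 low-unspliced rods) and over 30% (709 and 3084 high-unspliced rods), so unspliced values between these 2 rod classes follow from the split. The libraries also differed in sex. Both sexes were used in the study, but Xist, the RNA of the inactive X chromosome, was at 2213 CPM in control and 0.181 CPM in light damage high-unspliced rods, with 0 UMIs in light damage low-unspliced rods. Sex makeup and light exposure cannot be told apart for any value below. Depth differed as well, with a median of 2939 UMIs per control and 17040 per light damage cone-like droplet and of 2484 and 20305 per Müller-like droplet.

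**Figure D1:**
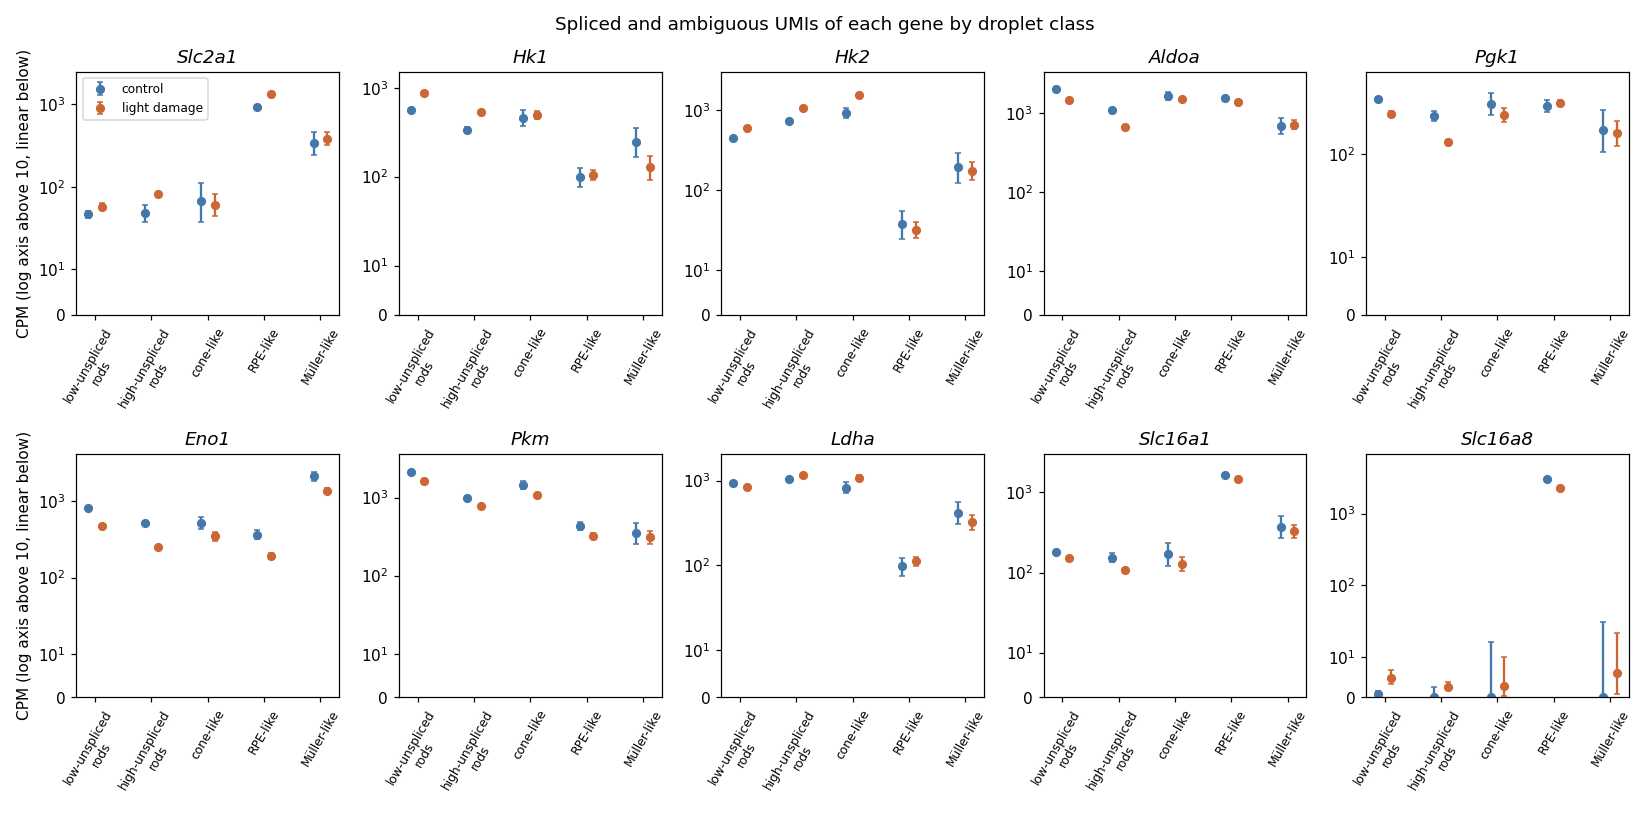
Spliced and ambiguous UMIs as CPM (log axis above 10 and linear below) of the 10 genes in 5 droplet classes, control in blue and light damage in orange, with 95% Poisson intervals. Slc16a8 sits at 2277 CPM or above in RPE-like droplets and at 6.08 CPM or below in the other classes.

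Slc16a8, Slc16a1 and Slc2a1 were highest in RPE-like droplets. Slc16a8 stood at 3020 CPM (interval 2891 to 3152) in control and 2277 CPM (2216 to 2338) in light damage RPE-like droplets. In rods it was between 0 and 4.75 CPM, where RNA free in the suspension alone would have given 0.776 to 2.80 CPM. Slc16a1 was 1639 CPM (1545 to 1738) in control RPE-like droplets, against 375 CPM (273 to 504) in Müller-like and 182 CPM (173 to 192) in low-unspliced rods. Slc2a1 followed the same order, with 923 CPM (852 to 997) in RPE-like, 341 CPM (244 to 464) in Müller-like and 46.3 CPM (41.7 to 51.3) in low-unspliced rods of the control library. Its levels in the 2 control rod classes and in control cone-like droplets (66.9 CPM, 37.4 to 110) did not differ beyond their intervals.

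The hexokinases and Ldha were higher in photoreceptors than in RPE-like droplets. Hk2 was highest in cone-like droplets in both libraries, at 927 CPM (805 to 1062) in control and 1531 CPM (1442 to 1625) in light damage. In control RPE-like droplets Hk2 was at 37.8 CPM (24.7 to 55.4), of which 25.8 CPM would be expected from free RNA. Hk1, a widely expressed hexokinase, was at 557 CPM (540 to 574) in control low-unspliced rods and 98.8 CPM (76.7 to 125) in RPE-like droplets. Ldha, which turns pyruvate into lactate, was at 936 CPM (914 to 957) in control low-unspliced rods and 97.4 CPM (75.5 to 124) in RPE-like droplets, where free RNA would give 76.0 CPM. In light damage RPE-like droplets Ldha was at 112 CPM (99.3 to 127), where free RNA would give 51.0 CPM. Aldoa was nearly as high in control RPE-like droplets (1519 CPM, 1428 to 1613) as in cone-like droplets (1627 CPM, 1464 to 1802), and those intervals overlap. Eno1 stood apart from the other glycolytic enzymes. It was highest in Müller-like droplets, at 2089 CPM (1835 to 2367) in control, above low-unspliced rods at 802 CPM (782 to 822) and RPE-like droplets at 363 CPM (320 to 411). Reads could be lost to the close copy Eno1b, since UMIs shared between genes were discarded. Eno1b itself had 92 and 141 UMIs over all kept droplets, a count that cannot show how many shared UMIs were discarded.

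In low-unspliced rods the hexokinases were higher after light damage and most later enzymes lower. Hk1 went from 557 CPM in control to 867 CPM in light damage, a log2 ratio of 0.64 (0.58 to 0.70). Hk2 was 449 CPM in control and 594 CPM in light damage (log2 ratio 0.40, 0.34 to 0.47). Slc2a1 was 46.3 CPM and 57.6 CPM (0.31, 0.10 to 0.53). The entry steps were therefore the only members with enough UMIs that were above control here. Eno1 was 802 CPM in control and 465 CPM in light damage (log2 ratio −0.79, −0.85 to −0.72). Aldoa was 2015 CPM and 1428 CPM (−0.50, −0.53 to −0.46), and Pgk1 was 339.7 CPM and 243 CPM (−0.48, −0.57 to −0.39). Pkm was 2120 CPM and 1644 CPM (−0.37, −0.40 to −0.33). Ldha and Slc16a1 were closer to control, at −0.17 (−0.22 to −0.12) and −0.28 (−0.40 to −0.16). The median of all 9053 genes with at least 50 UMIs was 0.16, so the lower members were further from it than from 0. By the rule of at least 1.5-fold, 1 of 9 members was higher (Hk1) and 1 lower (Eno1). Of all genes 14.1% were higher and 3.49% lower by that rule. Less the median gene 0 members were higher and 3 lower (Aldoa at −0.66, Pgk1 at −0.65 and Eno1 at −0.95), with Hk1 at 0.47, and with ribosomal, mitochondrial and rod genes left out of the total 0 were higher and 2 lower (Aldoa and Eno1). Eno1 lay at the 1.56th percentile of all genes and Aldoa at the 5.20th.

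The rods of the 2 libraries also differed in their clusters, which were drawn from all variable genes, members included, so values within a cluster are a description. Of low-unspliced rods, 1752 control and 462 light damage droplets lay in one cluster and 577 and 1294 in another. All 9 members kept their direction in both. Hk1 was at 0.43 (0.31 to 0.54) in the first and 0.68 (0.60 to 0.76) in the second, and Eno1 at −0.68 (−0.80 to −0.55) and −0.70 (−0.78 to −0.61). Slc2a1 was at 0.67 (0.25 to 1.08) and 0.11 (−0.17 to 0.41), so its interval excluded 0 in the first alone. A smaller cluster held 14 control and 123 light damage droplets. There Hk1 (−0.27, −0.89 to 0.41) and Pkm (0.12, −0.24 to 0.50) had the other direction, with intervals that include 0. The other members with at least 50 UMIs there kept theirs.

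**Figure D2:**
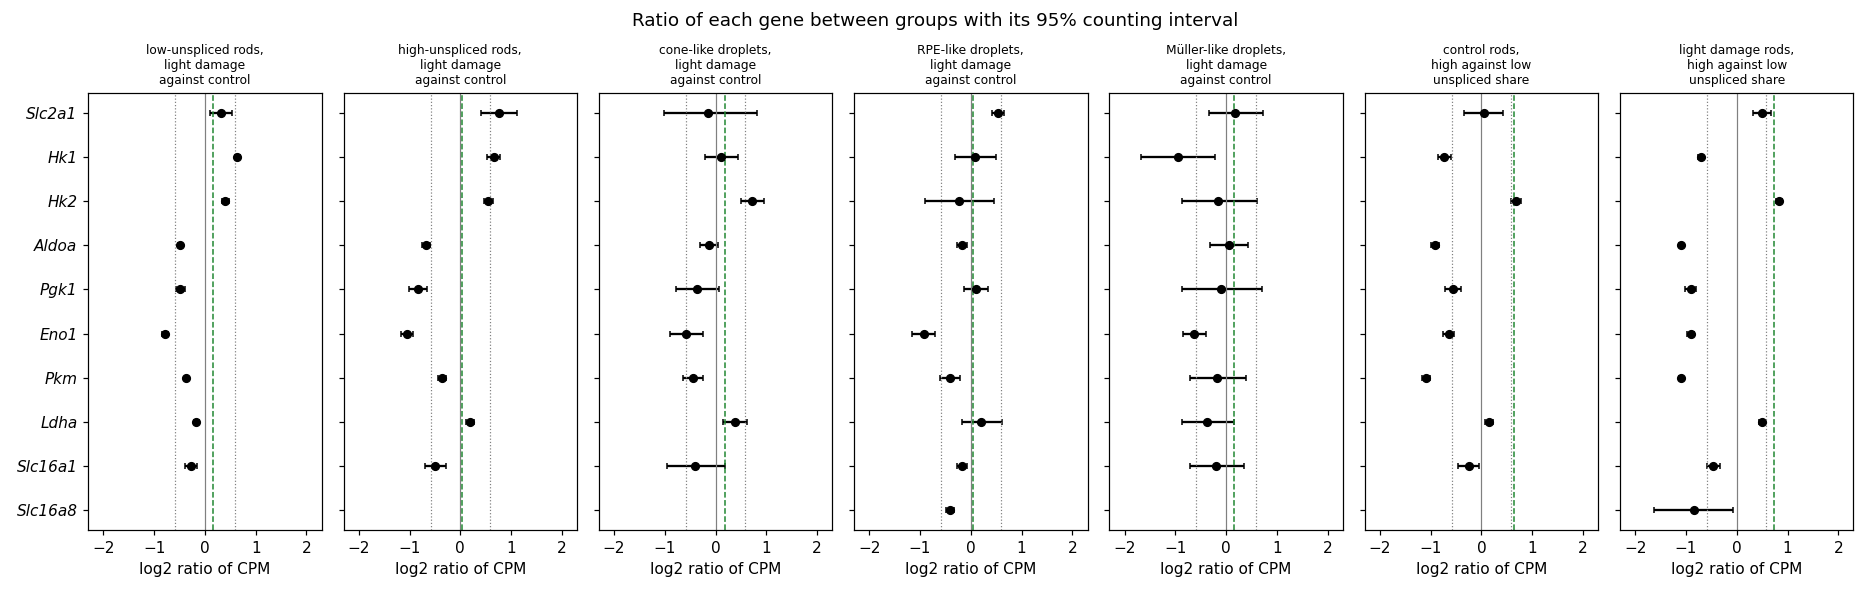
Log2 ratio of CPM of each gene with at least 50 UMIs in each of 7 comparisons, with 95% intervals, dotted lines at 1.5-fold and a dashed green line at the median gene. Eno1 lies left of 0 in all 7 panels, and Hk2 lies right of 0 in both rod panels and in cone-like droplets.

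In high-unspliced rods all of these genes but Ldha had the same direction when the class was taken whole, but for some it rested on clusters that control rods hardly shared. Slc2a1 was 47.9 CPM in control and 80.7 CPM in light damage, a log2 ratio of 0.75 (0.41 to 1.12). Hk1 was 336 CPM and 530.0 CPM (0.66, 0.53 to 0.79), and Hk2 was 723 CPM and 1059 CPM (0.55, 0.46 to 0.64). Ldha was 1031 CPM and 1172 CPM (0.18, 0.11 to 0.26), on the other side of 0 from low-unspliced rods. Eno1 was 515 CPM in control and 248 CPM in light damage, a log2 ratio of −1.06 (−1.17 to −0.94). Pgk1 was 231 CPM and 129 CPM (−0.84, −1.01 to −0.66). Pgk1 lies on the X chromosome, and the part of the sex difference in its value was not tested. Aldoa was 1067 CPM and 669 CPM (−0.67, −0.75 to −0.59), Slc16a1 154 CPM and 109 CPM (−0.50, −0.70 to −0.29) and Pkm 991 CPM and 769 CPM (−0.37, −0.45 to −0.29). Here 2 of 9 members were higher by at least 1.5-fold (Slc2a1 and Hk1) and 3 lower (Aldoa, Pgk1 and Eno1), beside 17.3% and 11.7% of 10511 genes. The median gene was at 0.04. With droplets named by cluster, Slc2a1 was at 0.30. With unspliced UMIs added 3 members were higher (Slc2a1, Hk1 and Hk2 at 0.66) and 1 lower (Eno1), with Aldoa at −0.45 and Pgk1 at −0.56.

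Of high-unspliced rods, 529 of the 709 control droplets lay in a cluster with 51 of the 3084 light damage droplets. Another cluster held 109 control and 1700 light damage droplets, and yet another held 2 and 1040. With only the clusters that had at least 10 such rods of each library, a choice made after seeing the data, Slc2a1 was at 0.08, Hk2 at 0.18 and Ldha at −0.33. Hk1 was at 0.75, Aldoa at −0.69, Pgk1 at −0.82 and Eno1 at −0.90. These clusters were pooled, so control rods mostly of one cluster were still set against light damage rods mostly of another. The pooled difference in Slc2a1 and Hk2 was small, and that in Ldha had the other direction. In the cluster of 109 and 1700 droplets Hk1 was at 0.92 (0.60 to 1.27), Hk2 at 0.12 (−0.08 to 0.33) and Eno1 at −0.92 (−1.17 to −0.65). In that of 529 and 51 the intervals of Hk1 (0.44, −0.09 to 0.92) and Eno1 (−0.40, −0.98 to 0.12) included 0. Pgk1 was at −0.27 (−0.72 to 0.23) in the former and −0.34 (−1.17 to 0.38) in the latter cluster. Aldoa was at −1.03 (−1.19 to −0.86) and −0.15 (−0.52 to 0.19). The pooled value of Pgk1 was thus further from 0 than its value in either of these clusters.

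Rods were also divided more finely by unspliced share, in 6 bins from 0 to 10% up to 50% and over, each with 59 to 2245 droplets per library. Hk1 and Hk2 were higher in light damage in 6 of 6 bins, with intervals apart in each. Aldoa, Pgk1, Eno1 and Pkm were lower in 6 of 6 bins, also with intervals apart in each, as was Gapdh, the glycolytic dehydrogenase that is no member. Slc16a1 was lower in 6 of 6, with intervals apart in 5. The differences between libraries were thus not limited to 1 level of unspliced RNA. Slc2a1 and Ldha changed with the bin instead. Slc2a1 was at 45.3 CPM in control and 57.8 CPM in light damage below 10% unspliced, at 51.7 CPM and 110.9 CPM between 30 and 40%, and at 52.7 CPM and 56.1 CPM from 50% up. Ldha was at 939 CPM and 841 CPM below 10%, at 876 CPM and 1462 CPM between 30 and 40%, and at 983 CPM and 888 CPM from 50% up. Both genes therefore stood highest in light-damaged rods of intermediate share, and near or below control in those with most unspliced RNA. Control Ldha was also highest at an intermediate share, between 40 and 50%. It was at 1291 CPM (1170 to 1421) there, against 1374 CPM (1337 to 1411) in light damage, and those intervals overlap. The light damage bins between 20 and 50% also had the most UMIs per droplet, with medians of 8179 to 8430, against 2108 to 2651 in control, and the part of depth in this was not tested.

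**Figure D3:**
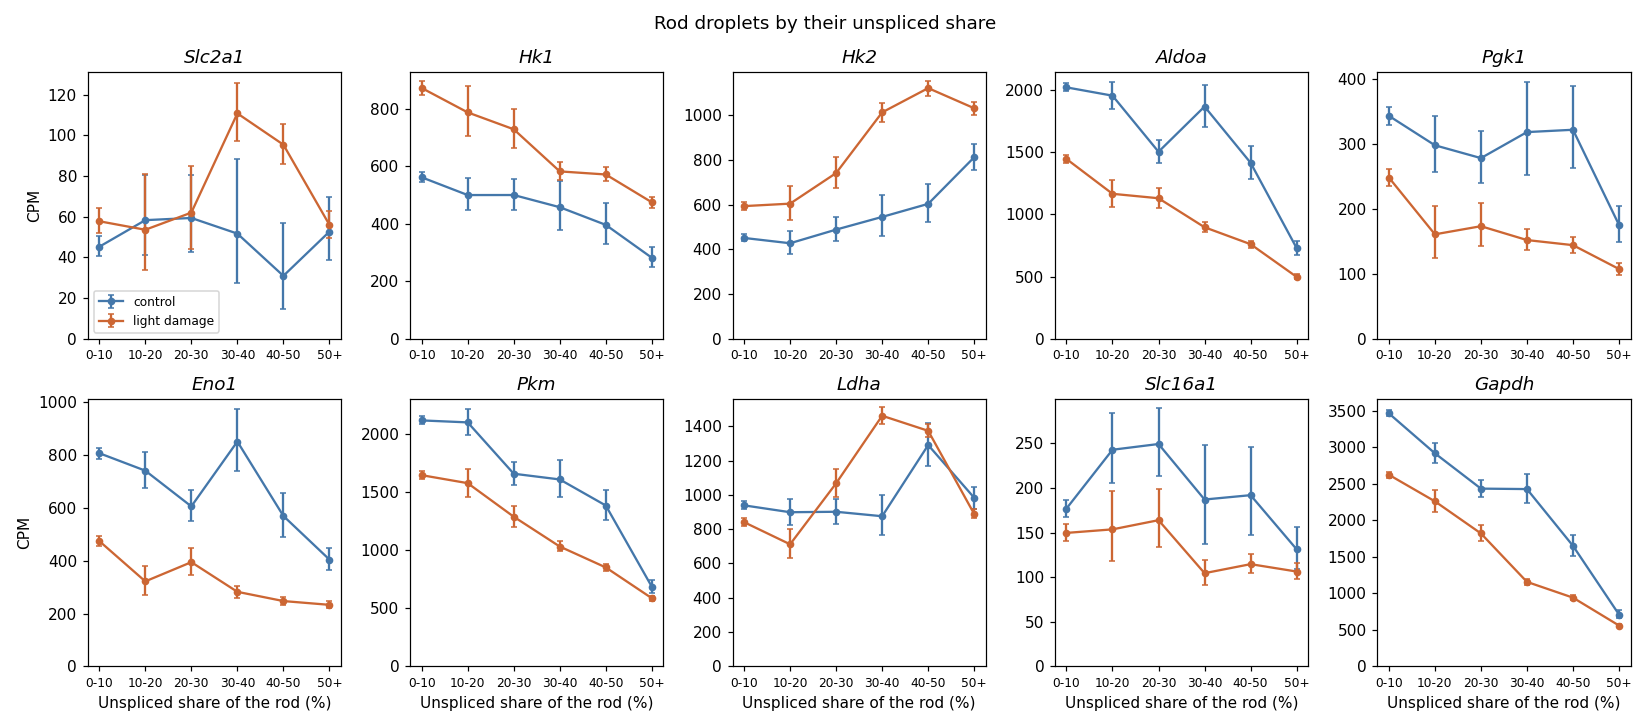
CPM of 9 members and of Gapdh in rods binned by unspliced share (control blue, light damage orange, 95% Poisson intervals, linear axes from 0). Slc2a1 and Ldha peak in light damage rods of 30 to 40% unspliced, at 110.9 and 1462 CPM.

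Within each library, the steps again separated when high-unspliced rods were compared with low-unspliced rods. Hk2 was higher in the high-unspliced rods, with a log2 ratio of 0.69 (0.59 to 0.78) in control and 0.83 (0.78 to 0.89) in light damage. Pkm had −1.10 in both libraries (−1.17 to −1.02 and −1.14 to −1.06). Aldoa had −0.92 (−0.99 to −0.84) in control and −1.09 (−1.14 to −1.05) in light damage. Hk1 and Hk2 thus went opposite ways, with Hk1 at −0.73 (−0.87 to −0.60) and −0.71 (−0.76 to −0.66). Eno1 was at −0.64 (−0.75 to −0.53) in control and −0.91 (−0.98 to −0.83) in light damage. Ldha was at 0.14 (0.06 to 0.22) in control and 0.49 (0.45 to 0.54) in light damage. The median gene was 0.64 higher in control and 0.74 higher in light damage high-unspliced rods, so Hk2 stood at the 51.4th and 53.4th percentile of all genes and differed little from a typical gene, whereas Pkm stood at the 5.99th and 4.45th. With unspliced UMIs added, Hk2 was at −0.24 in control and 0.02 in light damage. In control 1 of 9 members was higher by at least 1.5-fold and 4 lower, beside 52.3% and 14.3% of 8804 genes. In light damage 1 of 10 was higher and 6 lower, beside 56.7% and 10.9% of 10593 genes. Less the median gene 0 were higher and 7 lower in each library. The members lower in light damage included Slc16a8, at 4.75 CPM in low-unspliced and 2.63 CPM in high-unspliced rods, where free RNA would give 1.90 and 2.80 CPM.

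Unspliced UMIs were a small share for most members and a large one for Hk1, Slc2a1 and Slc16a1. In high-unspliced rods of the control library the unspliced share was 4.07% for Aldoa, 4.80% for Eno1 and 10.2% for Pkm, and it was 34.0% for Slc16a1, 42.9% for Slc2a1 and 56.6% for Hk1. The light damage library had the same order at its ends, from 5.49% for Aldoa to 53.9% for Hk1. Hk1 spans 111054 bases, the longest of the 10 genes. For Hk1 the unspliced and the spliced values moved alike in high-unspliced rods: the level in 1000000 unspliced UMIs (unspliced CPM) was 310.2 in control and 563 in light damage, a log2 ratio of 0.86 (0.74 to 0.98). For the lower members they did not. Pkm had an unspliced log2 ratio of 0.74 (0.51 to 0.98) where its spliced ratio was −0.37. Eno1, at 39 unspliced UMIs in control and 255 in light damage, had 0.19 (−0.30 to 0.72), and Aldoa, at 68 and 429, had 0.14 (−0.23 to 0.53), so their unspliced RNA was not below control beyond counting error. A second annotated Aldoa gene just upstream, also on the minus strand, held a further 305 and 1170 unspliced UMIs over all kept droplets but only 14 and 19 spliced ones.

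**Figure D4:**
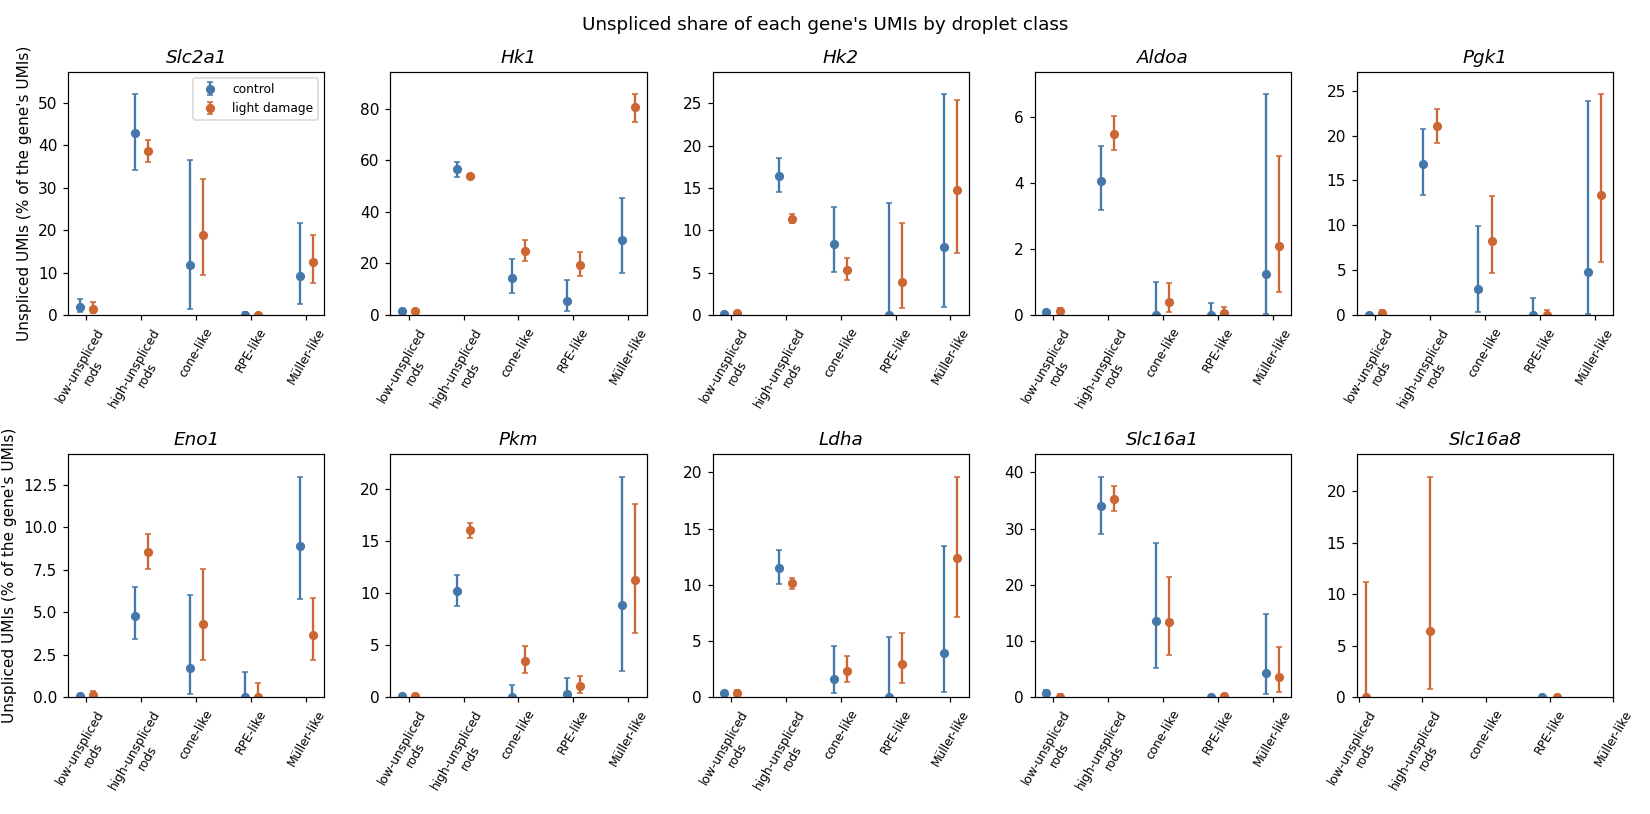
Unspliced share of each gene's UMIs (percent) by droplet class, control blue and light damage orange, with exact 95% binomial intervals. Points with under 10 UMIs are left out, and each panel has its own scale. Hk1 reaches 80.6% in light damage Müller-like droplets.

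Cone-like droplets were few and mixed with rod RNA. Rod markers took 8.26% of their UMIs in control and 3.39% in light damage, with all 10 rod markers present, and cone markers took 1.97% and 2.41%. Of a member's UMIs, 16.7% to 36.8% sat in a single control droplet, for the 9 members with any. Hk2, the hexokinase most typical of photoreceptors, was 927 CPM in control and 1531 CPM in light damage, a log2 ratio of 0.72 (0.51 to 0.95). Ldha was 829 CPM and 1074 CPM (0.37, 0.14 to 0.61). Eno1 was 517 CPM and 345 CPM (−0.58, −0.91 to −0.25) and Pkm 1453 CPM and 1067 CPM (−0.44, −0.63 to −0.25). Hk1, Aldoa, Pgk1, Slc2a1 and Slc16a1 had intervals that include 0, for example 0.11 (−0.21 to 0.44) for Hk1. Of 9 members 1 was higher by at least 1.5-fold and 0 lower, beside 29.3% and 12.7% of 3696 genes, and the median gene was at 0.19. Less the median gene 0 were higher and 3 lower (Eno1 at −0.77, Pkm at −0.63 and Slc16a1 at −0.59), with Hk2 at 0.54. With only the droplets under 5% of rod markers, 4 of 47 in control and 55 of 65 in light damage, Hk2 was at 0.28, Ldha at −0.04, Pkm at 0.06, Aldoa at 0.57 and Pgk1 at 1.28. All of these moved beyond their intervals, and the last 4 changed direction, while Eno1 stayed at −0.59.

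In RPE-like droplets the lactate transporter Slc16a8 and Eno1 were lower after light damage, and the glucose transporter Slc2a1 differed between clusters. Taken whole, Slc2a1 was 923 CPM in control and 1338 CPM in light damage, a log2 ratio of 0.54 (0.41 to 0.66), just under 1.5-fold. Slc16a8 was 3020 CPM and 2277 CPM (−0.41, −0.48 to −0.33). Slc16a1 was 1639 CPM and 1459 CPM (−0.17, −0.27 to −0.07). Bsg, the chaperone that carries MCT1 and MCT3 to the membrane, was 7125 CPM in control and 5904 CPM in light damage. Eno1 was 363 CPM and 190.4 CPM (−0.93, −1.16 to −0.70), the 1 member of 10 past 1.5-fold, beside 20.1% of 6298 genes higher and 13.5% lower. Pkm was 430.1 CPM and 325 CPM (−0.40, −0.60 to −0.21), but free RNA would account for 162 CPM and 65.0 CPM of these. Pgk1 was 289 CPM and 309 CPM (0.09, −0.13 to 0.33). With free RNA subtracted the log2 ratio of Ldha was 1.47, against 0.21 (−0.18 to 0.62) without. With each droplet weighted alike Slc16a8 was at −0.16, and without doublet removal Pkm was at −0.73. Rod markers took 0.811% of UMIs in control and 0.356% in light damage RPE-like droplets. Microglial and Müller markers took at most 0.147% in either library.

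The light damage RPE-like droplets fell into 2 main clusters. All 156 control droplets and 170 light damage droplets lay in one, and 120 light damage droplets with 0 of control in the other. RPE markers took 9.01% of the UMIs of the first cluster and 6.45% of the second. In light damage Slc2a1 was at 653 CPM (609 to 700) in the shared cluster, below the 923 CPM of control, and at 2089 CPM (2005 to 2175) in the other. Its log2 ratio within the shared cluster was −0.50 (−0.65 to −0.35), so the higher level of the whole class was found in the cluster without control droplets. Slc16a1 likewise was at 1141 CPM (1082 to 1202) in the shared cluster, a log2 ratio of −0.52 (−0.64 to −0.41), and at 1813 CPM (1735 to 1894) in the other. Slc16a8 was below control in both, at 2491 CPM (2403 to 2582) and 2056 CPM (1972 to 2141). Eno1 was below control in both as well, at 210.4 CPM (185 to 238) and 168 CPM (145 to 194). Pkm was at 388 CPM (354 to 425) in the shared cluster, where its ratio was −0.15 (−0.36 to 0.07), and at 257 CPM (228 to 288) in the other. The clusters were drawn from all variable genes, so these levels are a description.

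Beyond the members, Hkdc1 had more UMIs in light damage than in control RPE-like droplets. Hkdc1, a hexokinase-related gene, had 2 UMIs in 1 of 156 control RPE-like droplets and 173 UMIs in 83 of 292 in light damage, 2.91 CPM (0.352 to 10.5) and 73.7 CPM (63.1 to 85.5). The ratio was 25.4-fold on so small a control count, with a log2 interval of 2.79 to 7.72. The droplets with Hkdc1 held 6.41% of their UMIs in RPE markers and 0.203% in rod markers, and had a median of 9188 UMIs against 5328 in those without. Free RNA would give 0.199 CPM in control and 0.252 CPM in light damage. The libraries differed in depth, with a median of 2648.5 UMIs per control and 6388.5 per light damage RPE-like droplet. Thinned to 1000 UMIs, 0 of 156 control droplets had an Hkdc1 UMI, with an exact binomial upper limit of 2.34%. In light damage 25 of 292 had one (8.56%, exact binomial 5.62 to 12.4), against 2 of 1896 low-unspliced rods of that library (0.105%). In light damage Hkdc1 was at 23.8 CPM (16.0 to 34.2) in the shared RPE cluster, with a UMI in 19 of 170 droplets, and at 128 CPM (108 to 151) in the other, in 64 of 120. In rods Hkdc1 was between 0 and 1.33 CPM in both libraries. Hkdc1 (chr10:62383137-62422491, minus strand, GRCm38) ends 3228 bases upstream of Hk1 (chr10:62268855-62379908) on the same strand. In Müller-like droplets Hkdc1 was at 119 CPM (65.2 to 200.2) in control, from 14 UMIs in 6 of 44 droplets. It was at 112 CPM (79.2 to 155) in light damage, from 37 UMIs in 17 of 35.

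Müller-like droplets had all 8 Müller markers in both libraries, with 1.87% of UMIs in control and 0.772% in light damage, and 5 and 1 of these markers among their 10 leading genes. All 44 control droplets lay in 1 cluster with 10 of those of light damage, and the other 25 in a cluster with 0 control droplets. The estimated share of free RNA was 20.2% in control and 8.92% in light damage. Pkm, at 349.5 CPM in control, was below the 389.5 CPM that free RNA would give, so no Müller level can be read for it. Eno1, the member most abundant here relative to other classes, was 2089 CPM in control and 1349 CPM in light damage (log2 ratio −0.63, −0.86 to −0.40), and its ratio was −0.26 with each droplet weighted alike and −0.11 (−0.54 to 0.30) within the shared cluster. Hk1 was 247 CPM, from 29 UMIs, and 128 CPM, from 42 UMIs (−0.95, −1.67 to −0.22). Slc2a1 was 341 CPM and 386 CPM (0.18, −0.34 to 0.73), and the intervals of the other members with enough UMIs also included 0. Of 9 members 0 were higher by at least 1.5-fold and 2 lower, beside 36.4% and 23.1% of 1743 genes. These are broad shares, so the 2 calls are no result about the members.

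Spliced and unspliced Hk1 differed in direction in Müller-like droplets when the class was taken whole. In light damage Müller-like droplets it had 175 unspliced UMIs in 28 of 35 droplets, against 12 in 8 of 44 in control, or 523 and 90.7 unspliced CPM (log2 ratio 2.53, 1.69 to 3.51). Its unspliced share was 80.6% in light damage and 29.3% in control. The neighbouring Hkdc1 had a similar ratio, from 12 unspliced UMIs to 179 (2.56, 1.72 to 3.54). In RPE-like droplets Hk1 had 4 unspliced UMIs in control, all in 1 of 156 droplets, and 59 in light damage, in 32 of 292 (1.90, 0.47 to 3.82). Its spliced level there was 98.8 CPM and 104 CPM. Taken whole, these 2 classes had spliced Hk1 level or lower where its unspliced RNA was higher, while in high-unspliced rods both were higher. The lower Müller value rests on 29 and 42 spliced or ambiguous UMIs. Free RNA would give 81.6 CPM of its control level and 49.9 CPM of its light damage level. Within the Müller cluster that both libraries shared, spliced Hk1 was at 0.39 (−0.82 to 1.46), so its direction is not settled.

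**Figure D5:**
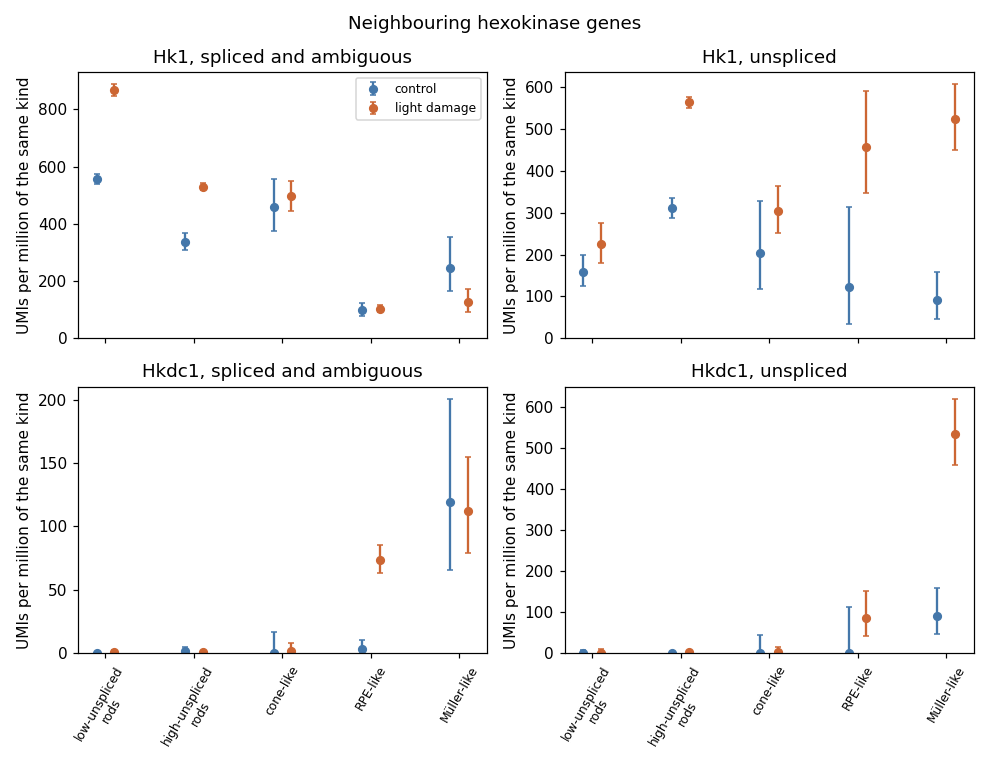
Hk1 and its upstream neighbour Hkdc1 in 5 droplet classes, as CPM of spliced and ambiguous UMIs (left) and unspliced CPM (right), with 95% Poisson intervals. Unspliced Hk1 and Hkdc1 in light damage Müller-like droplets reach 523 and 535 unspliced CPM.

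Across whole classes, Eno1 was lower after light damage in 5 of 5, each with an interval that excludes 0, though within the shared Müller cluster and the high-unspliced cluster of 529 and 51 droplets it did not. Slc16a1 was lower in 5 of 5, with 3 intervals that exclude 0. Pkm was lower in 5 of 5 too, with 4 such intervals, though no Müller level can be read for it. Hk2 was higher in 3 of 5, the photoreceptor classes, with 3 intervals excluding 0. Within clusters of high-unspliced rods, however, its interval included 0. It was at 0.12 (−0.08 to 0.33) in that of 109 and 1700 droplets and 0.13 (−0.25 to 0.49) in that of 529 and 51. In cone-like droplets under 5% of rod markers Hk2 was at 0.28, below its interval for the whole class. Hk1 was higher in 4 of 5, with 2 intervals excluding 0, both in rods. All 5 comparisons rest on the same 2 libraries.

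The wider pathway was read from lists of 101 other genes for glucose entry, glycolysis, lactate, mitochondrial pyruvate use, NADH shuttles, the pentose phosphate branch, hypoxia, regulators and glycogen. In low-unspliced rods 65 of them had enough UMIs, of which 6 were higher by at least 1.5-fold and 1 lower, with a median log2 ratio of −0.02. These are 9.23% and 1.54% of the list, below the 14.1% and 3.49% of all genes. Tigar, which lowers fructose bisphosphate, was 31.3 CPM in control and 62.3 CPM in light damage (log2 ratio 0.99, 0.76 to 1.23). Hif1a, the oxygen-regulated subunit of the hypoxia factor, was 570.5 CPM and 857 CPM (0.59, 0.53 to 0.64). The other higher genes were Kdm3a, Pygb, Gbe1 and Gys1 (the last named after its value was seen). Of the 6 glycogen genes with enough UMIs 3 were higher here, and in high-unspliced rods 0 were higher and 1 lower. Slc16a3, the transporter MCT4, was lower, at 8.68 CPM and 4.75 CPM.

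In high-unspliced rods 71 of the list genes could be read, with 10 higher and 8 lower, or 14.1% and 11.3%, against 17.3% and 11.7% of all genes. Ddit4, a stress and hypoxia gene that restrains mTOR, was 178 CPM in control and 384 CPM in light damage (1.11, 0.93 to 1.29), and Got1, the cytosolic aspartate transaminase of the malate shuttle, was 136 CPM and 286 CPM (1.08, 0.87 to 1.29). Aldoc, the aldolase of neural tissue, was 133 CPM and 67.6 CPM (−0.98, −1.20 to −0.74). Pfkfb2, which sets the level of the phosphofructokinase activator, was 369.7 CPM and 208 CPM (−0.83, −0.96 to −0.69). Mpc2, of the mitochondrial pyruvate carrier, was 165 CPM and 93.5 CPM (−0.82, −1.02 to −0.61). Pdp1, the phosphatase that activates pyruvate dehydrogenase, rested on 8 control UMIs (1.70, 0.69 to 2.93). Within rods, Pfkfb2 was higher in high-unspliced than in low-unspliced rods in both libraries, at 2.46 (2.29 to 2.64) in control and 1.67 (1.52 to 1.82) in light damage, while Gapdh was lower, at −1.51 (−1.58 to −1.44) and −1.68 (−1.72 to −1.64).

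In RPE-like droplets 52 list genes could be read, with 7 higher and 5 lower, or 13.5% and 9.62%, against 20.1% and 13.5% of all genes. Hif1a was 209 CPM in control and 607 CPM in light damage (1.54, 1.29 to 1.79). Vegfa, a target of that factor that supports choroidal vessels, was 269 CPM and 118 CPM (−1.19, −1.47 to −0.92). Slc2a12, another glucose transporter, was 145 CPM and 65.2 CPM (−1.16, −1.53 to −0.78), opposite to Slc2a1 in the whole class. Within the RPE cluster that both libraries shared, Slc2a1 was lower (−0.50, −0.65 to −0.35). No value within that cluster was computed for Slc2a12, Hif1a, Vegfa, Got2 or Sik1. Got2, the mitochondrial transaminase, was 74.1 CPM and 169.5 CPM (1.19, 0.77 to 1.64), and Sik1, a kinase, rested on 4 control UMIs (2.23, 0.80 to 4.15). In Müller-like droplets 14 could be read, with 0 higher and 7 lower, beside 36.4% and 23.1% of all genes. Aldoc was 665 CPM in control and 195 CPM in light damage (−1.77, −2.27 to −1.28), Bsg 1850 CPM and 754 CPM (−1.30, −1.56 to −1.03) and Gapdh 1313 CPM and 742 CPM (−0.82, −1.12 to −0.52). The estimated share of free RNA in this class was 20.2% in control and 8.92% in light damage. Of the light damage droplets, 25 lay in a cluster with 0 control droplets. The part of either in these 3 values was not tested. In cone-like droplets 35 could be read, with 6 higher and 5 lower, or 17.1% and 14.3%, against 29.3% and 12.7% of all genes. Aldoc was lower there too (−2.12, −2.74 to −1.51), as was Nxnl1, whose secreted product binds Bsg (−1.04, −1.39 to −0.67). Vegfa was higher (1.78, 0.88 to 2.82), and Pdha1, a pyruvate dehydrogenase subunit, rested on 6 control UMIs. Rod markers took 8.26% of cone-like UMIs in control and 3.39% in light damage. The part of rod RNA in these cone-like values was not tested.

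Over the 10 groups (5 classes in 2 libraries), the genes most like each member were sought among 6726 genes by the correlation of log2(CPM + 1). The nearest to Slc2a1 was Tmem56 (r = 0.99), to Slc16a8 Cpxm2 (0.99), to Hk2 Synj1 (0.99), to Ldha Rp1l1 (0.99), to Pkm Pcbp2 (0.99), to Slc16a1 Mif (0.98), to Hk1 Sgtb (0.98), to Aldoa Atp5o (0.96), to Pgk1 Tomm6 (0.95) and to Eno1 Ap4s1 (0.94). Aldoa and Pgk1 shared Tomm6 among their 3 nearest genes. No other member was among the 3 nearest genes of any member. Groups of 1 library share its depth and free RNA, and these values describe 10 groups.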

How the data were processed

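Per the labels and the study's methods, the authors sequenced 3′ 10x libraries, demultiplexed with Cell Ranger 7.0.1, mapped reads with Salmon 1.10.1 to spliced transcripts and introns of mm10, and counted UMIs with alevin 0.8.1, sense strand only, discarding UMIs shared between genes. The deposited values are raw counts of spliced, unspliced and ambiguous UMIs per gene and barcode, with no droplet filter. IDs were named from GENCODE (32235 of 32285).

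Droplets were kept from the steepest point of each library's curve of UMIs by barcode rank, 1464 UMIs in control and 1614 in light damage. Both points lay above a set floor of 500 UMIs. Of these, droplets under 10% mitochondrial UMIs were kept, doublets left out (114 control, 276 light damage), and the rest named by marker UMIs. Spliced and ambiguous UMIs were added up within each class of a library. CPM has an exact Poisson interval and log2 ratios an exact conditional binomial interval, both 95%. Leiden clusters (resolution 1) of all kept droplets served as an alternative naming and to split classes. No test was run, since each condition is 1 library. A gene with at least 50 UMIs in both groups together was called at 1.5-fold. Free RNA came from barcodes under 50 UMIs, scaled by rod markers (RPE, Müller) or RPE markers (rods, cones). Named genes are the 10 members, up to 6 called list genes per comparison and the 3 most similar genes. Members and lists were chosen with earlier results of these data known. Simulated counts were used to check the ratios. Python 3.11.15, scipy 1.17.1 and scanpy 1.11.5 were used.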

Additional observations from a re-analysis of the deposited data

Results flagged for a closer look

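Hk1 was past 1.5-fold in opposite directions in different classes. Relative to control, light damage gave a log2 ratio of 0.64 in low-unspliced rods and 0.66 in high-unspliced rods, but −0.95 in Müller-like droplets. With 1 library per condition this difference was not tested. The Müller-like value rests on 29 and 42 spliced or ambiguous UMIs. In the 1 cluster that held Müller-like droplets of both libraries it rested on 29 and 10 UMIs, with a log2 ratio of 0.39 (−0.82 to 1.46). With unspliced UMIs added, the value of the whole class had the rods' direction.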

How the results depend on the processing

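Counts of members past 1.5-fold in the rod comparisons stayed within 1.5 times under every alternative but unspliced UMIs alone, although the members counted changed under some, as given beside the results. In cone-like droplets the count of 1 became 3 with droplets named by cluster (1 higher, 2 lower), 3 less the median gene (0 higher, 3 lower), 2 when ribosomal, mitochondrial and rod genes were left out of the total (0 higher, 2 lower), 3 with each droplet weighted alike and 0 with unspliced UMIs alone, and, in alternatives chosen after seeing the data, 2 without the deepest droplet and 2 with only droplets under 5% of rod markers. In RPE-like droplets the count of 1 became 2 with a lower minimum of 1000 UMIs. It became 2 without doublet removal, 2 with free RNA subtracted and 3 with each droplet weighted alike. In Müller-like droplets the count of 2 became 1 with a minimum of 1000 UMIs, 4 with each droplet weighted alike and 1 with unspliced UMIs alone. With unspliced UMIs alone, low-unspliced rods had 0 called and high-unspliced rods 3, all higher. In Müller-like droplets, with 0 higher and 2 lower, the split turned where the count stayed within 1.5 times, to 2 higher and 1 lower with free RNA subtracted, 1 higher and 1 lower with unspliced UMIs added, and, chosen after seeing the data, 2 higher and 0 lower with the shared cluster alone. The cause of these changes was not tested.

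With unspliced UMIs added, the log2 ratio of Hk1 in Müller-like droplets was 0.99 and that of Hk2 between control rod classes −0.24. With unspliced UMIs alone, the direction turned for 15 of 32 values: for Aldoa (0.14), Eno1 (0.19) and Pkm (0.74) in high-unspliced rods, for Hk2 in cone-like droplets (−0.53) and for Hk1 in Müller-like droplets (2.53). Between rod classes it turned for Hk1 (0.97), Pkm (0.74), Pgk1 (3.93, on 1 UMI in low-unspliced rods) and Slc16a1 (1.24) in control, and for Hk1 (1.33), Aldoa (0.26), Pgk1 (2.08), Eno1 (1.09), Pkm (2.17) and Slc16a1 (4.45, also on 1 UMI) in light damage. Naming by cluster left no control Müller-like droplet and gave no value there. The mitochondrial limit of 5% moved 0 of 65 member ratios beyond their interval. A minimum of 1000 UMIs, which is looser than the one used, moved 2 of 65. Few droplets limit the cone-like and Müller-like values. No paired analysis was possible because each group has 1 library and no result comes from a test.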
